A study of Mus musculus with 28 samples.

Results

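The genes described here are Nppb, A2m, Spink1, Kcnj3 and Slc23a1, 5 of the 19938 genes with a probe set of their own on the array. They were selected on the measured values: in each of the 5 groups of mouse embryonic stem (ES) cells carrying a hotspot mutant of DICER1, each gene lay on the same side of its level in cells given wild-type DICER1. Nppb and A2m were lower in all 5 mutant groups and Spink1, Kcnj3 and Slc23a1 were higher. These differences chose the genes and are therefore given without a test. All 5 passed the filter on low levels, a mean over all arrays at or above 6.42 on the log2 scale, and were among the 13956 genes tested. Each is measured by 1 probe set, whose gene identifier matches the reference gene table.

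The study profiled mRNA on 28 Affymetrix Mouse Gene ST arrays, with the stated subject of how hotspot mutations of DICER1 affect miRNA processing. Untransduced ES cells were a Dicer+/+ line (called the Dicer wild-type line here, 2 arrays) and a Dicer-/- line (the Dicer-null line, 3 arrays). All other groups were Dicer-/- ES cells carrying a vector. The vector pLD-puro-ENvA delivered eGFP (3 arrays), DICER1 D1709A (4 arrays), DICER1 E1705K (3 arrays) or DICER1 D1810Y (3 arrays). The vector pLD-puro-PGKnvA delivered DICER1 D1709N (2 arrays) or DICER1 E1813Q (2 arrays). Wild-type DICER1 was delivered by pLD-puro-ENvA in 4 of its 6 arrays, numbered 1 to 4, and by pLD-puro-PGKnvA in the other 2. The eGFP group therefore has no PGKnvA counterpart. The labels name 1 line per Dicer genotype and do not say whether transduced cells were clones or pools, or whether replicates were separate cultures.

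DICER1 is the ribonuclease that cuts hairpin precursors into miRNA duplexes, and miRNAs in turn lower the level of mRNAs with matching sites. One of its catalytic domains, RNase IIIb, cuts the strand that yields miRNAs from the 5′ arm of the hairpin, and the hotspot residues coordinate metal ions in that domain. Dicer-deficient ES cells lack most mature miRNAs yet can be kept in culture. The 5 genes encode unrelated kinds of protein. Nppb encodes the hormone B-type natriuretic peptide, A2m and Spink1 encode secreted protease inhibitors, Kcnj3 encodes a subunit of G protein-gated potassium channels, and Slc23a1 encodes a sodium-dependent vitamin C transporter.

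Promoters are shown for 2 of the 5 genes, Nppb, which was lower in the mutants, and Kcnj3, which was higher. No promoter window was used for the other genes. Each line gives the 250 bases before the RefSeq gene start in GRCm38.p6, 5′ to 3′ on the gene's strand, with capitals for motif matches. The windows are chr4:147985650-147985899 (plus strand) for Nppb and chr2:55435720-55435969 (plus strand) for Kcnj3.
Nppb: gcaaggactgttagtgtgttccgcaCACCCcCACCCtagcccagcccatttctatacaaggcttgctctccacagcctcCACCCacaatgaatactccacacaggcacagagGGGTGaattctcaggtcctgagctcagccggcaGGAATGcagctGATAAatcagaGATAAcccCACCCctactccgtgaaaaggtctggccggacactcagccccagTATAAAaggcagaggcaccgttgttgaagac
Kcnj3: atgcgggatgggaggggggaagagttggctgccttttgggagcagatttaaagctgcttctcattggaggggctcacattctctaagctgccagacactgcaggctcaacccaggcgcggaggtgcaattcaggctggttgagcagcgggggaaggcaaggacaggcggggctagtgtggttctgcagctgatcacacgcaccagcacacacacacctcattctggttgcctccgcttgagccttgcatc
Both strands were searched for 6 short motifs. The TATA box, which places the start of transcription, was read as TATAAA. Sites of GATA factors, which act in heart and endoderm, were read as GATAA. The M-CAT element of TEAD factors was read as CATTCC. The AP-1 site was read as TGANTCA. The CACC element of Sp and KLF factors was read as CACCC. The E-box was read as CACGTG. The Nppb window held the TATA box at positions -31 to -26 from the start. It held GATA sites at -94 to -90 and -83 to -79, and an M-CAT element on the opposite strand at -105 to -100. CACC elements lay on the plus strand from -225, -219, -171 and -75, and on the opposite strand from -138, and no matches overlapped. The Kcnj3 window held none of these motifs, which says only that the letters are not in this window. Of 32851 promoter windows of this length, 12.4% held the TATA box, 22.6% a GATA site, 12.6% an M-CAT element, 6.75% an AP-1 site, 52% a CACC element and 6.02% an E-box, so single matches of these short motifs are common.

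The deposited values are log2 levels, with array medians between 7.14 and 7.27. Dicer1, the gene disrupted in the Dicer-/- line, measured 10.68 ± 0.05 (SD, n = 2) where Dicer is intact and 9.27 ± 0.04 (SD, n = 3) in untransduced Dicer-/- cells. It was 9.31 with wild-type DICER1, 9.39 with eGFP and 8.91 to 9.30 in the mutant groups, so this probe set shows no DICER1 transgene and does not check the transgene labels, which leave the species of the DICER1 sequence unstated. The ES cell markers Pou5f1, Nanog and Sox2 had group means of 12.37 to 12.92, 12.62 to 13.16 and 11.97 to 12.76, so all groups carried the defining ES cell transcripts. The deposited values obey exact arithmetic relations between arrays. For every gene, the deviation of D1709A array 4 from its arrays 1 to 3 is the negative of that of wild-type DICER1 array 4, with sums no further from 0 than 1.33e-04. The PGKnvA and ENvA means of wild-type DICER1 are equal to within 7.5e-05, so the deposited values give no measure of a vector difference. In the Dicer-null line, the Dicer wild-type line, E1705K, D1709A and wild-type DICER1, the deviations of array 1 from the mean of arrays 1 to 3 (or of both, for the Dicer wild-type line) sum to 0 across these groups to within 1.83e-04. No source used here says how these relations arose, and the arrays concerned are not free measurements.

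Nppb and A2m were lower in the mutant cells than with wild-type DICER1, with eGFP and in the Dicer-null line, with 1 A2m array as an exception against eGFP. Spink1 and Kcnj3 were higher than in every other group. For Slc23a1 the mutant levels lay between a low level with wild-type DICER1 and a high level with eGFP or in either untransduced line. Against wild-type DICER1, the mean of the 5 mutant groups was 4.99-fold lower for Nppb, 5.00-fold lower for A2m, 3.04-fold higher for Spink1, 2.68-fold higher for Kcnj3 and 2.62-fold higher for Slc23a1. All 14 mutant arrays were above all 6 wild-type DICER1 arrays for the 3 higher genes, as for 8.97% of tested genes, and below them for both lower genes, as for 8.05%.

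**Figure D1:**
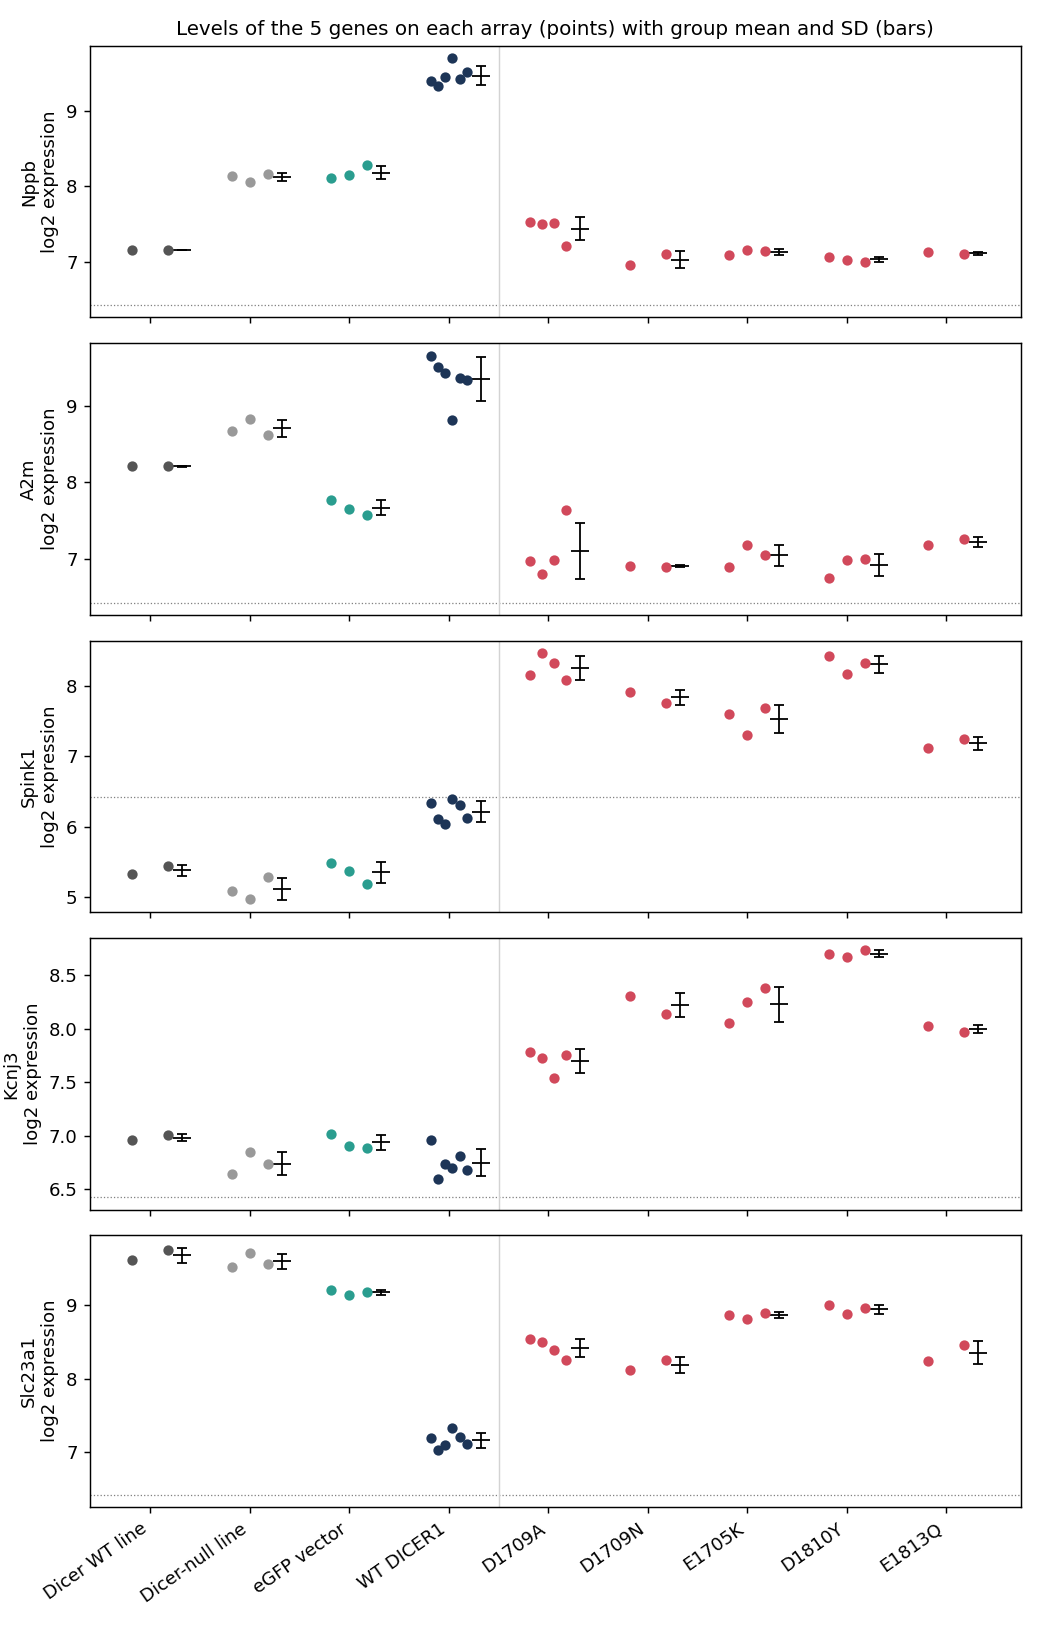
Log2 level of each gene (vertical axis) in the 9 groups (horizontal axis), with 1 point per array, bars for the mean ± SD and a dotted line at the filter level of 6.42. Nppb and A2m are highest with wild-type DICER1, Spink1 and Kcnj3 are highest in the 5 mutant groups, and Slc23a1 is lowest with wild-type DICER1.

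Nppb encodes a peptide best known from heart muscle, where it is released on stretch and acts through a guanylyl cyclase receptor. Its level was 7.16 and 7.15 in the Dicer wild-type line, 8.14, 8.06 and 8.17 in the Dicer-null line and 8.11, 8.15 and 8.28 with eGFP. The 6 wild-type DICER1 arrays ran from 9.33 to 9.69 with a median of 9.43. The mutant arrays were all lower than these, at 7.52, 7.50, 7.51 and 7.21 for D1709A and 6.95 and 7.10 for D1709N. Levels were 7.09, 7.16 and 7.14 for E1705K, 7.06, 7.02 and 6.9996 for D1810Y, and 7.13 and 7.09 for E1813Q. Wild-type DICER1 thus gave the highest Nppb level, eGFP and the Dicer-null line an intermediate one, and the mutants and the Dicer wild-type line a low one. The mutant mean differed from wild-type DICER1 by -2.32 on the log2 scale (SE 0.0506), from eGFP by -1.03 (SE 0.0742) and from the Dicer-null line by -0.98 (SE 0.0742). Against the Dicer wild-type line it differed by -0.00696 (SE 0.0851), with 9 of the 14 mutant arrays below both arrays of that line and 5 above them. D1709A, the highest mutant group at 7.44 ± 0.15 (SD, n = 4), did not overlap the Dicer wild-type line or the Dicer-null line.

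A2m encodes alpha-2-macroglobulin, a large secreted protein that traps proteases. It was 8.21 and 8.21 in the Dicer wild-type line, 8.67, 8.83 and 8.62 in the Dicer-null line and 7.77, 7.65 and 7.57 with eGFP. With wild-type DICER1 it ran from 8.81 to 9.66 with a median of 9.40. In the mutants it was 6.97, 6.79, 6.98 and 7.64 for D1709A, 6.91 and 6.89 for D1709N, and 6.89, 7.17 and 7.05 for E1705K. It was 6.75, 6.99 and 6.9996 for D1810Y and 7.17 and 7.26 for E1813Q. The ranges of the 5 mutant groups formed 1 overlapping chain, below every array of both untransduced lines. The 1 mutant array not below all eGFP arrays was D1709A array 4. The mutant mean differed from wild-type DICER1 by -2.32 (SE 0.102) and from eGFP by -0.63 (SE 0.149), and wild-type DICER1 differed from eGFP by 1.69 (SE 0.156). Against the Dicer-null and Dicer wild-type lines the mutants differed by -1.67 (SE 0.149) and -1.18 (SE 0.171). For Nppb too, wild-type DICER1 was above eGFP, by 1.29 (SE 0.0779), so for both genes the mutant and wild-type DICER1 means lay on opposite sides of eGFP.

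Spink1 encodes a Kazal-type inhibitor that blocks trypsin in the pancreas. Its levels outside the mutants were all under 6.42, so the gene passed the filter through the mutant arrays alone and had to differ. It was 5.33 and 5.44 in the Dicer wild-type line, 5.09, 4.98 and 5.29 in the Dicer-null line, 5.49, 5.37 and 5.19 with eGFP, and 6.03 to 6.39 (median 6.21) with wild-type DICER1. In the mutants it was 8.16, 8.46, 8.32 and 8.08 for D1709A, 7.91 and 7.76 for D1709N, and 7.59, 7.30 and 7.68 for E1705K. It was 8.42, 8.17 and 8.32 for D1810Y and 7.12 and 7.25 for E1813Q. All 14 mutant arrays were above all 14 others, as for 1.42% of tested genes. The mutant mean differed from wild-type DICER1 by 1.61 (SE 0.0716) and from eGFP by 2.47 (SE 0.105), and wild-type DICER1 differed from eGFP by 0.86 (SE 0.110). Against the Dicer-null and Dicer wild-type lines the mutants differed by 2.70 (SE 0.105) and 2.44 (SE 0.120). Spink1 was thus above eGFP in both, and further above it in the mutants.

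Kcnj3 encodes GIRK1, a pore subunit of the potassium channel that acetylcholine opens in pacemaker cells of the heart. It was 6.96 and 7.0035 in the Dicer wild-type line, 6.64, 6.85 and 6.73 in the Dicer-null line, 7.02, 6.91 and 6.88 with eGFP, and 6.59 to 6.96 (median 6.71) with wild-type DICER1. These 4 groups overlapped their neighbours in order of level. In the mutants it was 7.78, 7.72, 7.54 and 7.75 for D1709A, 8.30 and 8.14 for D1709N, and 8.05, 8.25 and 8.38 for E1705K. It was 8.70, 8.67 and 8.73 for D1810Y and 8.02 and 7.97 for E1813Q. All 14 mutant arrays were above all others, as for 1.42% of tested genes. The mutant mean differed from wild-type DICER1 by 1.42 (SE 0.0542) and from eGFP by 1.23 (SE 0.0795), and wild-type DICER1 differed from eGFP by -0.19 (SE 0.0834). Against the Dicer-null and Dicer wild-type lines the mutants differed by 1.43 (SE 0.0795) and 1.19 (SE 0.0912). Of the 5 genes, Kcnj3 had the smallest fitted difference between wild-type DICER1 and eGFP.

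Slc23a1 encodes SVCT1, which carries ascorbate across the membrane of gut and kidney epithelial cells. It was 9.61 and 9.75 in the Dicer wild-type line, 9.52, 9.71 and 9.57 in the Dicer-null line, 9.21, 9.14 and 9.18 with eGFP, and 7.04 to 7.33 (median 7.15) with wild-type DICER1. In the mutants it was 8.54, 8.50, 8.39 and 8.25 for D1709A, 8.11 and 8.26 for D1709N, and 8.87, 8.82 and 8.90 for E1705K. It was 9.0007, 8.88 and 8.96 for D1810Y and 8.25 and 8.47 for E1813Q. All 14 mutant arrays lay above every wild-type DICER1 array, as for 8.97% of tested genes. They also lay below every eGFP and untransduced array, and how many tested genes share this intermediate place was not counted. Wild-type DICER1 was 4.04-fold below eGFP, a difference of -2.01 (SE 0.0746), and the mutants differed from eGFP by -0.62 (SE 0.0711). Against the Dicer-null and Dicer wild-type lines the mutants differed by -1.05 (SE 0.0711) and -1.13 (SE 0.0815). For Slc23a1 the mutants thus differed from eGFP in the same direction as wild-type DICER1, by a smaller amount.

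**Figure D2:**
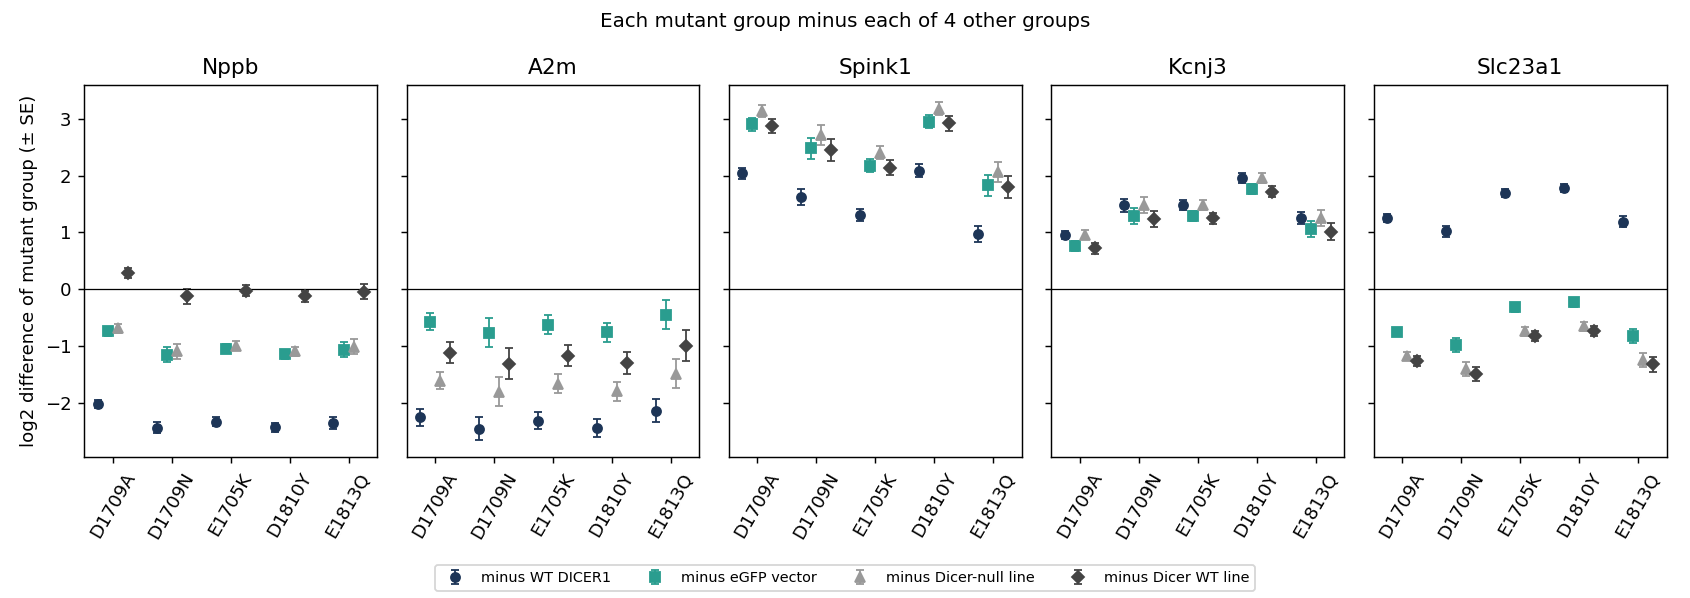
Fitted log2 difference (vertical axis) of each mutant group (horizontal axis) from wild-type DICER1, eGFP, the Dicer-null line and the Dicer wild-type line, with bars for the standard error. Against wild-type DICER1, Nppb and A2m lie between -2.46 and -2.03 and the other 3 genes between 0.95 and 2.09; against eGFP, Slc23a1 lies between -0.99 and -0.23.

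The mutants differed among themselves more for the 3 higher genes than for the lower ones. Against wild-type DICER1, Nppb differed by -2.03 in D1709A to -2.44 in D1709N, and A2m by -2.14 in E1813Q to -2.46 in D1709N. Spink1 differed by 0.97 in E1813Q to 2.09 in D1810Y, Kcnj3 by 0.95 in D1709A to 1.96 in D1810Y, and Slc23a1 by 1.02 in D1709N to 1.78 in D1810Y. D1810Y thus had the largest difference for all 3 higher genes, although its Spink1 range overlapped that of D1709A and its Slc23a1 range that of E1705K. D1709A and D1709N change the same residue, but in different vectors. Ranked by the mutant group closest to wild-type DICER1, A2m was 1st and Nppb 2nd among genes lower in all 5 mutants, and Slc23a1, Spink1 and Kcnj3 were 13th, 14th and 15th among those higher. The ranks, and the shares that follow, rest on the differences that chose the genes, so they are no separate support. A difference of at least 1 in all 5 mutant groups was seen for 0.0931% of tested genes upward and 0.086% downward. Slc23a1 was just inside that size, at 1.02 in its closest mutant group, and Spink1 and Kcnj3 were just outside it, at 0.97 and 0.95. Mutant arrays lay below all other arrays for 0.717% of tested genes, which include neither Nppb nor A2m.

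The arrays were also compared within subsets, because of the exact relations and the vectors. Within ENvA arrays other than those numbered 4, the mutants differed from wild-type DICER1 by -2.17 for Nppb, -2.58 for A2m, 1.89 for Spink1, 1.44 for Kcnj3 and 1.65 for Slc23a1. Within the arrays numbered 4, which are 1 D1709A and 1 wild-type DICER1 array, they differed by -2.49, -1.18, 1.69, 1.06 and 0.92 in the same order of genes. Within PGKnvA arrays they differed by -2.40, -2.30, 1.29, 1.36 and 1.11. The wild-type DICER1 mean of these arrays equals that of the ENvA arrays in the deposited values, so this subset does not check the vector. No subset turned a direction. The arrays numbered 4 gave the smallest of the 3 differences for A2m, Kcnj3 and Slc23a1, and the largest for Nppb. The subsets hold different mutant groups, so array number and mutant cannot be told apart in this order. For Kcnj3, D1709A over all its arrays differed from wild-type DICER1 by 0.95, less than the 1.06 of array 4. The deviation of array 4 from the other 3 was 0.72 for A2m in D1709A and -0.72 with wild-type DICER1, and -0.31 and 0.31 for Nppb.

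**Figure D3:**
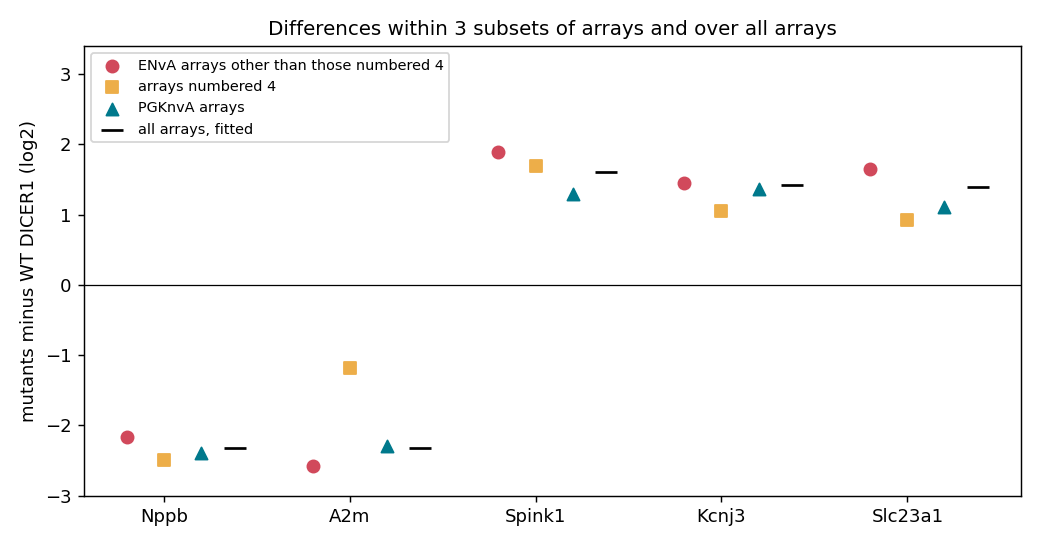
Log2 difference of the mutants from wild-type DICER1 (vertical axis) for each gene (horizontal axis), with points for 3 subsets of arrays and a dash for the fit to all arrays, and no error bars. Each gene keeps its direction in all 3 subsets, and A2m runs from -2.58 to -1.18. The genes were chosen on these arrays, so the kept direction is no separate support.

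Contrasts whose differences hold neither a mutant nor a wild-type DICER1 array were not used to choose the genes, and these were tested with limma (two-sided, Benjamini-Hochberg adjusted over 13956 genes). Their standard errors still pool the spread of all 28 arrays: without D1709A array 4, the SE for A2m between the untransduced lines is 0.144 in place of 0.187 and its adjusted p 0.00425. Spink1 was tested here only because the mutant arrays lifted its mean over the filter. The Dicer-null line differed from the Dicer wild-type line in 3 of 5 members, where 57.9% of all tested genes did. Nppb rose by 0.97 (SE 0.0931, adjusted p = 1.74e-09) and A2m by 0.49 (SE 0.187, adjusted p = 0.0260), and Kcnj3 fell by 0.24 (SE 0.0997, adjusted p = 0.0400). For Spink1 the difference was -0.26 (adjusted p = 0.0908) and for Slc23a1 -0.08 (adjusted p = 0.462). With either array of the Dicer wild-type line left out, Nppb was the 1 member called. Adjusted p over the alternatives ran from 1.29e-06 (with only the arrays of the groups compared) to 0.0985 for A2m, which lost its call also without Dicer-null array 2, and from 0.0222 to 0.167 for Kcnj3, which lost it also without Dicer-null array 1 or 3. The eGFP group differed from the Dicer-null line in 2 of 5 members, where 47.6% of tested genes did. A2m fell by 1.04 (SE 0.167, adjusted p = 1.14e-05) and Slc23a1 fell by 0.42 (SE 0.0797, adjusted p = 9.1e-05). Nppb (0.05, adjusted p = 0.633), Spink1 (0.23, 0.112) and Kcnj3 (0.20, 0.0719) did not pass. The eGFP group differed from the Dicer wild-type line in 3 of 5 members, where 56.7% did, in a contrast that shares its arrays with both above. Nppb rose by 1.02 (adjusted p = 7.77e-10), A2m fell by 0.55 (SE 0.187, adjusted p = 0.0149) and Slc23a1 fell by 0.50 (SE 0.0891, adjusted p = 2.85e-05). The A2m call was lost without either array of the Dicer wild-type line, with adjusted p from 4.42e-06 to 0.0685 over the alternatives. The share of members called in each of the 3 contrasts was thus near the share of all genes, and nothing is read from it about the members.

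Genes of the members' own systems were taken from lists fixed with earlier results of these data known, without the members. They were tested in the mean of 5 mutant groups against wild-type DICER1, where 60.1% of all tested genes passed and the median over all tested genes was 0.0076. Of the natriuretic peptide system, 3 of 11 tested genes rose and 2 fell. Pde2a, a cyclic nucleotide phosphodiesterase stimulated by cGMP, rose by 1.19 (SE 0.0753, limma adjusted p = 1.06e-12), from a mean of 7.30 with wild-type DICER1 to 8.48, with all 14 mutant arrays above the wild-type DICER1 arrays. Mme, the peptidase neprilysin, fell by 0.63 (SE 0.0262, limma adjusted p = 3.79e-16), and Pde5a, a cGMP phosphodiesterase, rose by 0.49 (SE 0.0403, limma adjusted p = 1.28e-10). The receptor gene Npr1 rose by 0.28 (limma adjusted p = 6.23e-06), whereas Npr3 (0.06, limma adjusted p = 0.186) and Corin (-0.08, limma adjusted p = 0.209) did not pass. Nppa, the neighbour and paralogue of Nppb, had group means of 6.64 to 6.78 and a difference of -0.04 (limma adjusted p = 0.574).

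Of the alpha-2-macroglobulin family and its receptor, 4 of 10 measured genes were tested, of which 1 rose and 2 fell. The receptor gene Lrp1 fell by 0.48 (limma adjusted p = 2.93e-05), its chaperone gene Lrpap1 fell by 0.08 (limma adjusted p = 0.0361), and Cd109, a membrane-anchored relative of A2m, rose by 0.28 (limma adjusted p = 3.46e-04). None of them had all mutant groups on the same side of wild-type DICER1. The highest mutant group mean was 9.90 for Lrp1 and 12.21 for Lrpap1, against 9.81 and 12.14 with wild-type DICER1. The lowest for Cd109 was 8.34, against 8.45. The paralogues Pzp, Mug1 and Mug2 did not pass the filter. Of the secreted protease inhibitors, 4 of 11 tested genes rose and 4 fell. Timp3, an inhibitor of matrix metalloproteases, fell by 0.56 (limma adjusted p = 7.64e-09), and Wfdc2 rose by 0.35 (limma adjusted p = 9.45e-08). Serpinb6a, a serine protease inhibitor, fell by 0.28 (limma adjusted p = 2.85e-06). All 8 other Spink genes measured lay below the filter. Of the trypsin and pancreatic proteases, 5 were tested and Ctrl alone passed, rising by 0.27 (limma adjusted p = 1.72e-04).

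Of 14 other inward rectifier genes, 4 were tested and only Kcnj9, another GIRK subunit, rose, by 0.15 (SE 0.0576, limma adjusted p = 0.0300). The usual partners Kcnj5 and Kcnj6 did not pass the filter. Of the G protein genes, 7 of 13 tested rose and 0 fell. Gng3 and Gnb5, which encode gamma and beta subunits, rose by 0.78 (limma adjusted p = 8.76e-15) and 0.56 (limma adjusted p = 2.5e-12), and Gnai2 rose by 0.24 (limma adjusted p = 4.41e-10). The list for vitamin C and nucleobase transport also holds genes of enzymes and scaffold proteins, and counts given for it are of the whole list. In it 3 of 8 tested genes rose and 2 fell, among them the glutaredoxin gene Glrx, which fell by 0.43 (limma adjusted p = 3.24e-07). The scaffold gene Slc9a3r1 rose by 0.31 (limma adjusted p = 7.69e-05), and Gulo, whose enzyme makes ascorbate in mice, fell by 0.30 (limma adjusted p = 0.00317). The second ascorbate transporter gene Slc23a2 had a difference of 0.08 (limma adjusted p = 0.0978). Of the other tested transporter genes in the list, Slc2a1 rose by 0.12 (limma adjusted p = 5.4e-04). Slc2a3 (-0.01, limma adjusted p = 0.465) and Slc2a8 (-0.01, limma adjusted p = 0.854) did not pass. Of 24 tested genes for ascorbate-dependent dioxygenases, 7 rose and 11 fell. P4ha1 and Plod2, which hydroxylate collagen, fell by 0.95 (limma adjusted p = 5.93e-12) and 0.83 (limma adjusted p = 3.36e-13), and Kdm2b, a histone demethylase, rose by 0.74 (limma adjusted p = 5.38e-12). The medians of the 8 lists lay between -0.07 and 0.07. Rises and falls of related genes here are against wild-type DICER1 alone, and some reverse against eGFP. P4ha1 and Plod2 had mutant means of 9.30 and 9.62, above 8.63 and 9.38 with eGFP. Gnb5 and Wfdc2 had mutant means of 8.57 and 9.70, below 9.03 and 11.20 with eGFP. Others did not reverse, such as Pde2a (8.48, eGFP 6.59) and Gng3 (10.66, eGFP 10.19).

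The same lists were counted in the comparisons that hold no mutant. In wild-type DICER1 against eGFP, where 59.5% of all tested genes passed, 3 natriuretic peptide genes rose and 3 fell, 3 secreted inhibitors rose and 6 fell, 2 G protein genes rose and 4 fell, 1 vitamin C transport gene rose and 4 fell, and 9 dioxygenases rose and 7 fell. Of the smaller lists, 1 macroglobulin family gene rose and 2 fell, 1 inward rectifier gene rose and 1 trypsin family gene fell. With each array centred on its median, 1 natriuretic peptide gene rose and 3 fell in this comparison, so that list's split moves with the scaling. Between the Dicer-null and Dicer wild-type lines, where 57.9% of all tested genes passed, 6 natriuretic peptide genes rose and 1 fell, all 4 tested macroglobulin family genes rose (3 with the replicate block, without the mean-variance trend or without the filter), and 7 secreted inhibitors rose and 2 fell. In that comparison 7 G protein genes rose and 2 fell, 5 vitamin C transport genes rose and 1 fell, 9 dioxygenases rose and 7 fell (12 and 6 with centring), 2 trypsin family genes rose and 1 inward rectifier gene fell. The list medians there ran from -0.08 for inward rectifiers to 0.51 for the macroglobulin family, where the median of all tested genes was 0.0132.

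**Figure D4:**
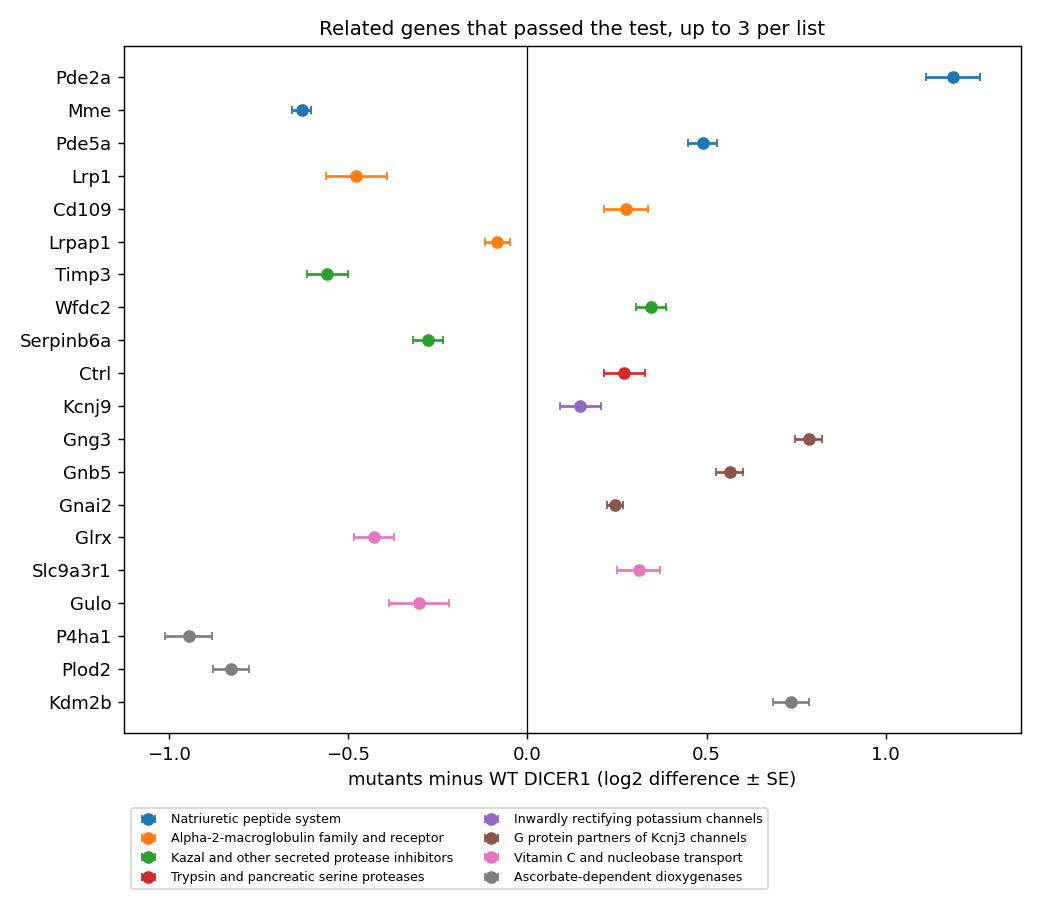
Log2 difference of the mutants from wild-type DICER1 (horizontal axis) with its standard error for the 20 related genes that passed the test, up to 3 from each list. Pde2a has the largest rise at 1.19, and P4ha1 and Plod2 the largest falls at -0.95 and -0.83.

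The nearest measured genes on the chromosome were examined for each member. Beside Nppb, 2510039O18Rik fell by 0.27 (limma adjusted p = 1.79e-07). Iqsec3, beside A2m, had a difference of -0.03 (limma adjusted p = 0.684). Jakmip2, beside Spink1, had a mean of 6.18 and lay below the filter. Without the filter it differed by 1.01 (SE 0.0860, limma adjusted p = 1.84e-10), with mutant arrays of 5.98 to 7.72 above wild-type DICER1 arrays of 5.48 to 5.95. Its group means were 7.30 in E1705K and 7.48 in D1810Y, against 6.42, 6.13 and 6.00 in D1709A, D1709N and E1813Q, so its order among the mutants was not that of Spink1. Nr4a2, beside Kcnj3, rose by 0.36 (limma adjusted p = 1.27e-04) from 7.08 to 7.45, below the 8.13 seen with eGFP. Paip2, beside Slc23a1, fell by 0.08 (limma adjusted p = 0.00512), and Mzb1 had a difference of -0.09 (limma adjusted p = 0.216). Mug1 beside A2m, Scgb3a2 beside Spink1 and Galnt13 beside Kcnj3 did not pass the filter. Without the filter Scgb3a2 differed by -0.16 (SE 0.0665, limma adjusted p = 0.0458), opposite in direction to Spink1. Mug1 (-0.08, limma adjusted p = 0.269) and Galnt13 (0.06, limma adjusted p = 0.382) did not pass the test there.

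Likeness of pattern was described by Pearson's r over the 9 group means, which share 1 normalization and, except for the Dicer wild-type line, the Dicer-/- background, and are no independent points. The genes most like Nppb were Zfp553 (0.988), Trpv3 (0.972) and Rapgef6 (0.958), and those most like A2m were Tmx1 (0.973), Rybp (0.962) and Mfsd14b (0.962). Those most like Spink1 were Icmt (0.981), Nipa1 (0.970) and Pde2a (0.968), and those most like Kcnj3 were Dll3 (0.989), Spred3 (0.988) and Trim46 (0.979). Those most like Slc23a1 were Usp54 (0.965), Dennd5b (0.960) and Slc38a1 (0.953). Pearson's r leaves out the size of a shift, and sizes varied among these genes. The mutant mean was 8.63 for Icmt and 11.61 for Rybp, against 8.49 and 11.87 with wild-type DICER1. For Pde2a it was 8.48 against 7.30. Between members, r was 0.842 for Nppb and A2m and 0.885 for Spink1 and Kcnj3, while Slc23a1 had values of -0.440 to -0.106 with the others. A gene of the natriuretic peptide list, Pde2a, is thus among those whose pattern is most like that of Spink1.

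Markers of other cell types were examined because several members are known from heart, pancreas or epithelium. In bulk RNA, fewer cells of a type and less RNA per cell cannot be told apart. Counts of markers that rose or fell are for the mutants against wild-type DICER1, where 60.1% of all tested genes passed. Of 10 cardiac muscle markers 7 passed the filter, with list means of 6.89 to 7.22 over the 9 groups, 7.15 in the mutants and 7.13 with wild-type DICER1, and 1 rose and 2 fell. Of 10 trophoblast markers 9 passed, with means of 8.07 to 9.08, 8.78 in the mutants, 8.57 with wild-type DICER1 and 8.16 with eGFP, and 6 rose and 2 fell. Of 12 endoderm markers 8 passed (means of 6.62 to 7.05; 1 rose and 2 fell), and of 10 fibroblast or feeder markers 6 passed (6.19 to 6.77; 2 fell). All 10 ES cell markers passed, and 2 rose and 7 fell. Their part in the members' differences was not tested.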

How the data were processed

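Total RNA of 28 ES cell samples was hybridised to Affymetrix Mouse Gene ST arrays. The deposited log2 expression values are those of the authors, made with RMA and Partek 6.6 per the submitters' processing notes, with settings not given in the sources used here. Scanner files were not used. Of 35556 probe sets, 21789 have 1 symbol, 1621 several and 12146 none, and only the first were used, with the highest-mean probe set for each of 19938 symbols. Genes with a mean below the 30th percentile (6.42) were left out, which left 13956. All 28 arrays entered 1 limma fit (version 3.58.1 in R 4.3.3) with 9 group coefficients, a PGKnvA term and eBayes with a mean-variance trend. The PGKnvA term rests on wild-type DICER1 alone, whose vector means are equal to within 7.5e-05, so it adjusts no difference for the vector. Differences of D1709N and E1813Q from eGFP and from the untransduced lines are thus not corrected for it. The fit has 18 residual degrees of freedom, fewer in fact because of the exact relations, so p-values are approximate. The number of arrays limits the precision. A gene was called at an adjusted p under 0.05 (Benjamini-Hochberg over all genes tested). The fit was tested on simulated data with independent noise on each array. Such data lack the exact relations, so the simulation does not check the p-values given here. Groups come from genotype, vector and transgene labels. Replicates are not stated to be separate cultures, so p-values measure only the spread between these samples, which may be technical. The rule for named genes took the 5 members, up to 3 called genes per related list by absolute difference, the 3 genes with the highest Pearson r to each member over group means, leaving out predicted and small RNA genes, and the nearest measured gene on each side. Further genes named in the report (Npr1, Npr3, Corin, Pzp, Mug1, Mug2, Kcnj5, Kcnj6, Slc23a2, Slc2a1, Slc2a3, Slc2a8) were chosen after their values were seen. The members and lists were chosen with earlier results of these data known. Promoter sequences are from the RefSeq table of GRCm38.p6. The alternatives were no filter, centring each array on its median, a replicate block, no mean-variance trend, the mean of a gene's probe sets, no vector term, only the groups compared, leaving out each array, leaving out both arrays numbered 4 (chosen after seeing the data), and subsets by vector and array number.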

Additional observations from a re-analysis of the deposited data

Results flagged for a closer look

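The level of Nppb in D1709A array 4 was 7.21, far below the next array of that group at 7.50, a gap of 0.931 of the group's range. A2m with wild-type DICER1 was lowest in array 4 at 8.81, against 9.35 for the nearest of the others, a gap of 0.629 of the range. These were 2 of 10 sets of arrays examined (each of the 5 genes in D1709A and with wild-type DICER1), and chance flags about 1 in 20. Both arrays are numbered 4 and are the pair whose deviations mirror each other in the deposited values for every gene, with Nppb deviations of -0.31 and 0.31 and A2m deviations of 0.72 and -0.72.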

How the results depend on the processing

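No mutant difference from wild-type DICER1 and no called difference of a member changed sign under the alternatives run. For the mutant differences, on which the genes were chosen, this is no separate support. Of 570 described differences, 14 moved by more than the spread between replicates. Mutants minus wild-type DICER1 was -2.17 for Nppb, -2.58 for A2m, 1.89 for Spink1 and 1.65 for Slc23a1 within ENvA arrays other than those numbered 4, and -2.49 for Nppb, -1.18 for A2m, 1.06 for Kcnj3 and 0.92 for Slc23a1 within the arrays numbered 4. With ENvA arrays alone it was 1.81 for Spink1 and 1.58 for Slc23a1, and with PGKnvA arrays alone 1.29 and 1.11; against eGFP, ENvA arrays alone gave 2.68 for Spink1 and -0.44 for Slc23a1. The fits to ENvA or PGKnvA arrays alone average different mutant groups against wild-type DICER1 means that are equal between the vectors. Their values therefore differ with the mutants averaged, and no further cause of the 14 moves was tested. The members called between the parental lines ranged from 1 to 3 when each array was left out. Of 540 tested differences 12 lost and 4 gained a call. Kcnj3 between the parental lines lost it without the filter (adjusted p = 0.0530), with median centring (-0.16, adjusted p = 0.163; all genes differ by -0.08 without centring relative to with it) and with the replicate block (-0.24, adjusted p = 0.0731). The A2m call between eGFP and the Dicer wild-type line was lost without either Dicer wild-type array (0.0685 and 0.0649). Spink1 gained a call between the parental lines (0.0392) and between eGFP and the Dicer-null line (0.0485) without Dicer-null array 3, and Kcnj3 in the latter without Dicer-null array 2 (0.0410) or wild-type DICER1 array 1 (0.0481). Over 88 same-numbered pairs of arrays, the correlation of deviations from group means ran from -1 to 0.549, with 12 over 0.1. The exact relations fix part of these correlations, so whether the numbers pair the samples is not settled by them, and the labels give no pairing. In the mutants against wild-type DICER1, the replicate block also took 1 of 2 falls from the natriuretic peptide and alpha-2-macroglobulin lists, the Kcnj9 call, 1 rise each from the secreted inhibitor, G protein and vitamin C transport lists and 1 dioxygenase fall; the macroglobulin fall was also lost with centring and without the trend. Without the filter 2 trypsin family genes rose (1 with it) and 4 vitamin C transport genes fell (2 with it). In wild-type DICER1 against eGFP, 5 natriuretic peptide genes rose without the filter (3 with it), 2 inward rectifiers rose (1), 2 vitamin C transport genes rose (1), and the trypsin family fall was lost, as with the block; without the vector term 4 G protein genes rose (2). Between the parental lines 2 inward rectifiers fell without the filter (1), and 2 vitamin C transport genes fell without the vector term (1).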
